A study of Homo sapiens with 9 samples.

Results

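A group of 10 genes for secreted inflammatory signals were followed in LN229 glioblastoma cells given formate: the IL-6 family cytokines IL6, IL11 and LIF, the chemokines CXCL8, CXCL1, CXCL2 and CCL2, the interleukin-1 cytokines IL1A and IL1B, and the macrophage growth factor CSF1. They were chosen by name, and each of the 10 matched 1 row, by its Ensembl gene identifier, of the 23727 genes in the deposited table of raw read counts. Of these 10 members, 8 passed the filter on low counts that left 15273 genes for testing. IL6 and CXCL2 did not, and were too low to judge.

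LN229 is an established human glioblastoma cell line (one label field spells it LN299). The cells were grown in DMEM with added glucose, glutamine and fetal bovine serum, and all 3 groups shared this medium. The groups were untreated cells at 0 h, cells after 8 h with 500 µM sodium formate and cells after 24 h with 500 µM sodium formate, with 3 libraries each. Formate is a small acid that carries a single carbon into folate metabolism. All untreated libraries were of 0 h, so formate and time in culture cannot be told apart at 8 h or 24 h. The labels do not say whether the replicates were separate cultures, so the p-values measure only the spread between these libraries, which may be technical. In bulk RNA, fewer cells that make a transcript and less of it per cell cannot be told apart.

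IL-6 family cytokines bind a receptor chain of their own and signal through the shared chain gp130, encoded by IL6ST, to JAK kinases and the transcription factor STAT3. CXCL8, CXCL1 and CXCL2 draw neutrophils, CCL2 draws monocytes, and CSF1 keeps macrophages alive and dividing. In glioblastoma such tumour-derived signals are known for recruiting and shaping the myeloid cells of the tumour. The factors NF-kB, AP-1 and C/EBP are the textbook regulators of many of these genes, and the interleukin-1 cytokines are activators of NF-kB.

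Of the members, 7 matched RefSeq promoter entries (GRCh38.p14), with 8 entries in all because IL1A has 2; LIF, CCL2 and CSF1 did not match. The 250 bases before the annotated start are shown for 5 members: IL11, which had the largest decrease, the 3 CXC chemokines, which include a pair of close paralogs with unlike levels, and IL6, the family's founding cytokine. The sequences run 5′ to 3′ on the gene's own strand, and capitals mark motif matches. The windows are chr19:55370464-55370713 on the minus strand for IL11, chr4:73740319-73740568 on the plus strand for CXCL8, chr4:73869143-73869392 on the plus strand for CXCL1, chr4:74099196-74099445 on the minus strand for CXCL2 and chr7:22726950-22727199 on the plus strand for IL6.
IL11: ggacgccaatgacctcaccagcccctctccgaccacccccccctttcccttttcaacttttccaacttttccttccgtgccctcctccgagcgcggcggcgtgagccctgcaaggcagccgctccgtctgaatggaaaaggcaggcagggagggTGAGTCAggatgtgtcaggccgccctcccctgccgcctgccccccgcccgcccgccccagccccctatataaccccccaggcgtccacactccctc
CXCL8: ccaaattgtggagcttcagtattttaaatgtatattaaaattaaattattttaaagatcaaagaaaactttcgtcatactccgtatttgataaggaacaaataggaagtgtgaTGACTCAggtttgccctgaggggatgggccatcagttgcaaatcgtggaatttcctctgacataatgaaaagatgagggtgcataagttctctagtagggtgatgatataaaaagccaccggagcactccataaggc
CXCL1: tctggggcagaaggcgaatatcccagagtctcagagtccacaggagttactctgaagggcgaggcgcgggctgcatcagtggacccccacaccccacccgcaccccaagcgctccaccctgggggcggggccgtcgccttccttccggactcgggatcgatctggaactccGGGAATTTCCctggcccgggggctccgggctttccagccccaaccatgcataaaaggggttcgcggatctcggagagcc
CXCL2: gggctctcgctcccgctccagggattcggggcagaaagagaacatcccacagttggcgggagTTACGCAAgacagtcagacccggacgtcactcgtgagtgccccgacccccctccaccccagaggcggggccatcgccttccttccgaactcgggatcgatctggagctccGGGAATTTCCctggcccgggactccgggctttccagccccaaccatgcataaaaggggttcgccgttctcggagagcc
IL6: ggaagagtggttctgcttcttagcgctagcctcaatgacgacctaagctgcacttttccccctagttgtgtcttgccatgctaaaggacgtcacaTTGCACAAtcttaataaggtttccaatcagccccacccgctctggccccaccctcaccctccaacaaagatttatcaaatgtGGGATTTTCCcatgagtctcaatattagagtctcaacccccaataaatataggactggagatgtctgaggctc

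The letters of 4 motifs were searched on both strands, and no match of one overlapped a match of another in the members. The AP-1 motif TGANTCA was found in IL11, from base -96 to -90 counted from the start, in CXCL8, from -137 to -131, and in IL1A. Of all 35116 promoter windows of the same length, 6.57% hold it. An NF-kB motif of the letters GGG, any 2 bases and TTTCC was found in CXCL1 (-79 to -70), CXCL2 (-78 to -69) and IL6 (-73 to -64), and 1.73% of all windows hold it. CXCL1 and CXCL2 carry the same 10 letters there, GGGAATTTCC. The CXCL8 window holds TGGAATTTCC, which differs in the first letter and so was not counted or marked. The C/EBP motif TTGCNNAA was found in CXCL2 (-188 to -181), IL6 (-155 to -148) and IL1B (-215 to -208), against 9.05% of all windows. The TEAD motif GGAATG was in none of the 7 members and in 11.9% of all windows. A match is a run of letters in a window, and no binding was measured here. Sites that depart from the searched letters are missed, so a window without a match may still hold one.

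The libraries held between 22222298 and 25848242 reads counted to genes. Levels are given in CPM, read counts scaled to library size, with TMM factors that ran from 0.920 to 1.06. Replicate 1 stood apart in each group, most at 0 h. Between the counts of 2 libraries, chi-square divided by its degrees of freedom was 57.6 and 60.5 for untreated replicate 1 against its group, 22.6 and 23.7 for 8 h replicate 1 and 13.9 and 24.5 for 24 h replicate 1, against 8.63, 10.9 and 8.86 between replicates 2 and 3 of the same groups. No pair agreed within sampling noise, so no library was counted as a repeat of another. Replicates with the same number deviated together from their group means at 0 h and 24 h. However, 24 h replicate 2 did so more with untreated replicate 3 (r = 0.27) than with untreated replicate 2 (0.164). Whether the numbers mark a pairing is not in the labels. The 24 h against 0 h comparison was also fitted with the replicate number as a block over all 9 libraries, which assumes such a pairing in all 3 groups. That value is given beside the results whose call it changes. The summed level of 11 astrocytic and glioma markers was 5491 to 8672 CPM over the 9 libraries, mostly from vimentin, while GFAP, the defining astrocyte filament, had 0.129 to 0.425 CPM. FABP7 and S100B were the 2 of the 9 tested markers called at 24 h against 0 h, where 4.25% of all tested genes were called. They rose by 1.25 and 1.38 on the log2 scale (edgeR adjusted p = 0.0167 and 0.0460). The FABP7 call was lost without 24 h replicate 2 (0.102) or 3 (0.0979), and that of S100B without untreated replicate 1 (0.103) or 3 (0.0728), 8 h replicate 3 (0.0704) or 24 h replicate 1 (0.0512), 2 (0.155) or 3 (0.194). At 24 h against 0 h, edgeR called 0 genes without 24 h replicate 2 and 0 without 24 h replicate 3. Every unblocked edgeR call of this comparison was therefore lost in those fits, whatever the gene. With the block 3 of the 9 were higher and 2 lower, beside 12.6% and 11.6% of all tested genes. The block added OLIG2 at 0.53 (edgeR adjusted p = 0.0303), CD44 at -0.37 (0.00690) and VIM, vimentin, at -0.45 (0.00858). The OLIG2 block call was lost without untreated replicate 2 (0.0685) or 3 (0.109), 8 h replicate 3 (0.0519) or 24 h replicate 1 (0.0845) or 3 (0.138), and the other 4 held in 9 of 9 block fits. Of 8 myeloid markers, 6 had a row, none was at 0 in all 9 libraries, and they summed to 0.731 to 1.28 CPM at 0 h, 1.05 to 1.41 at 8 h and 0.972 to 1.24 at 24 h, with no single count over 18. The 3 endothelial markers with a row, of 4, summed to 0.423 to 0.707, 0.363 to 0.699 and 1.16 to 1.86 CPM, none at 0 in all 9 libraries, and the 1 of 5 lymphocyte markers with a row had at most 2 counts. The rise of the endothelial sum lay in VWF, with 12, 8 and 9 counts at 0 h and 29, 24 and 38 at 24 h (edgeR adjusted p = 0.0304), a call lost without untreated replicate 2 (0.0639) or 3 (0.0563) or 24 h replicate 2 (0.110) or 3 (0.146). The part of these markers in the results was not tested.

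Among the members, LIF was the most abundant transcript per length of exon in every group, with 69.7 ± 12.8 CPM per kb of exon at 0 h (SD, n = 3). IL11 followed at 16.6 ± 9.20 and CCL2 at 15.8 ± 1.66, and these neighbours overlapped between libraries. CXCL1 came next at 10.3 ± 3.41, then CXCL8 at 4.35 ± 2.45 and CSF1 at 3.82 ± 0.694, the latter 2 overlapping. IL1A at 0.226 ± 0.0558, IL6 at 0.118 ± 0.0160 and IL1B at 0.0943 ± 0.0560 were far below, and CXCL2 had no count. The order at 8 h was the same down to CSF1. At 24 h IL11 had moved from the second place to the fifth, at 4.70 ± 1.81 CPM per kb, behind CCL2 at 16.3 ± 2.98, CXCL1 at 7.28 ± 1.45 and CSF1 at 5.21 ± 0.180. CSF1 and IL11 overlapped there, and CXCL8 lay below both at 2.27 ± 0.475.

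**Figure D1:**
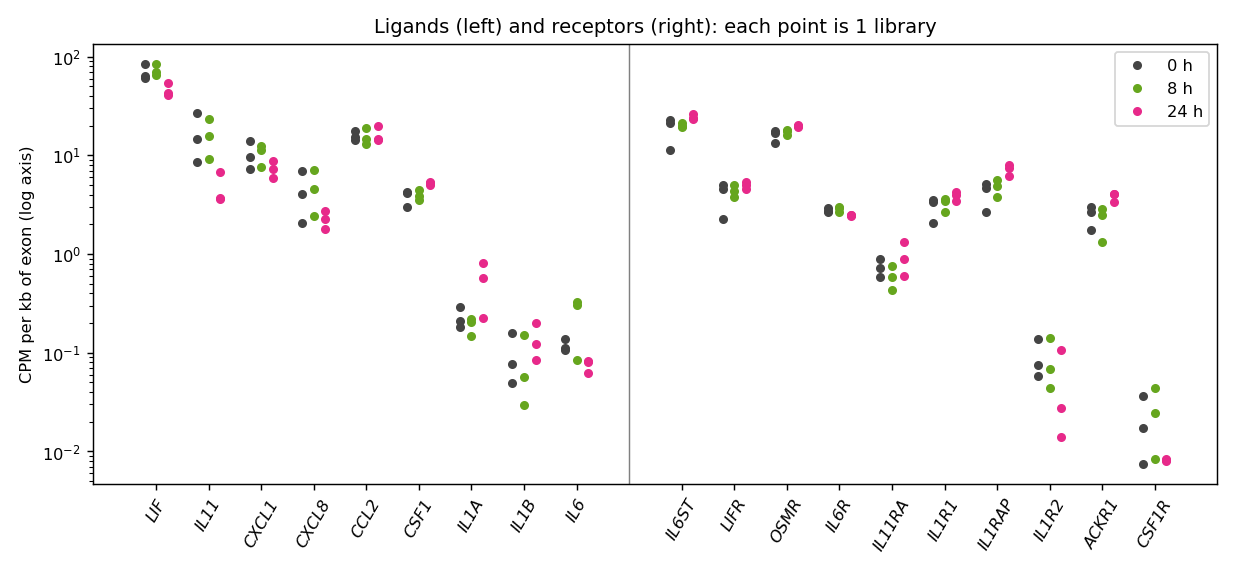
Level of each member (left) and receptor gene (right) in CPM per kb of exon on a log axis, with 1 point per library, coloured by time with formate. LIF is the highest ligand at every time. The receptor chains IL6ST and OSMR lie in the range of IL11 and CCL2 at 0 h and 8 h, and well above IL11 at 24 h. IL1A, IL1B, IL6, IL1R2 and CSF1R lie below 1 CPM per kb. CXCL2, at 0 counts, has no place on a log axis.

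After 8 h with formate none of the 8 tested members was called as changed. In edgeR's quasi-likelihood test the adjusted p was 0.9999 for each member, 0 of the 8 had an unadjusted p under 0.05, and 0% of the 15273 tested genes were called at an adjusted p under 0.05; 79 genes had an unadjusted p under 0.05. DESeq2 and the block also called 0 genes. The widths differed by member: the 95% interval of the log2 fold change was -0.38 to 0.33 for CCL2 and -0.27 to 0.41 for LIF, but -0.92 to 0.85 for IL11 and -0.79 to 1.03 for CXCL8. A change within those bounds may have been missed. The bounds are not limits of detection, since larger changes at 24 h against 0 h also went uncalled in this fit, at -0.60 for LIF and -0.93 for CXCL8.

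After 24 h, IL11 was the 1 member of 8 that passed the test against 0 h, and it fell. Over all tested genes 4.25% were called, 1.77% as lower. With the replicate block 6 of the 8 were called, IL11, LIF, CXCL8 and CXCL1 lower and CSF1 and IL1A higher, where 24.1% of all tested genes were called, 12.6% higher and 11.6% lower. CCL2 and IL1B were called in neither fit. The median log2 fold change of the 8 members was -0.23, beside 0.01 for all tested genes. The libraries of 24 h and 0 h did not overlap for 3 of the 8, IL11, LIF and CSF1, as for 30.3% of all tested genes. Against 8 h, IL11 and LIF passed the test, where 4.56% of all tested genes were called and 1.72% as lower. The comparisons of 24 h with 0 h and with 8 h share the 24 h libraries.

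**Figure D2:**
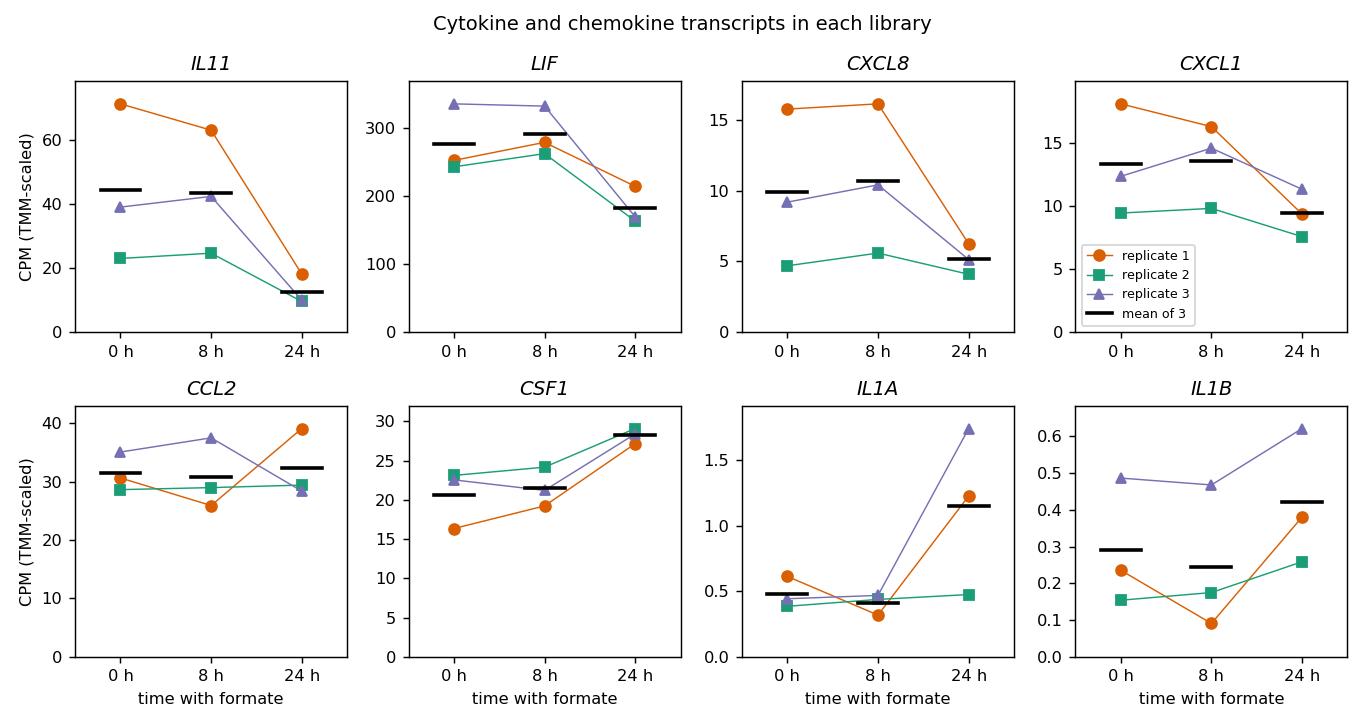
TMM-scaled CPM of the 8 tested members in each of the 9 libraries against time with formate. Thin lines join libraries with the same replicate number, and black bars are the means of 3. IL11 and LIF lie lower in all 3 libraries at 24 h than in any at 0 h or 8 h, CSF1 lies higher in all 3, and replicate 1 is the highest library for IL11 and CXCL8 at every time.

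IL11 (ENSG00000095752, chr19:55364389-55370463, minus strand) encodes a gp130 cytokine first known for its action on megakaryocytes and now also for fibrosis. Its level was 71.3, 23.0 and 39.0 CPM in untreated replicates 1, 2 and 3, 63.1, 24.7 and 42.4 CPM at 8 h, and 18.1, 9.57 and 9.98 CPM at 24 h. Every 24 h library was below every untreated and every 8 h library, although the untreated libraries themselves spread over a wide range. The group means were 44.4 ± 24.6, 43.4 ± 19.2 and 12.6 ± 4.83 CPM (SD, n = 3). At 24 h it was 3.53-fold lower than at 0 h (log2 fold change -1.82, SE 0.43, 95% interval -2.76 to -0.88, edgeR adjusted p = 0.0394), and it was lower in 3 of 3 same-numbered pairs, by log2 ratios of -1.98, -1.27 and -1.97. Against 8 h the log2 fold change was -1.79 (edgeR adjusted p = 0.0408).

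The IL11 call at 24 h against 0 h was lost, with the direction kept, when any 1 of 5 libraries was left out. Without untreated replicate 1 the log2 fold change was -1.32 (edgeR adjusted p = 0.0861). The adjusted p was 0.0526 without untreated replicate 3, 0.0591 without 8 h replicate 3, 0.162 without 24 h replicate 2 and 0.183 without 24 h replicate 3. Without 24 h replicate 2 or 3, 0 of all tested genes were called, so these losses are not particular to IL11. Over all 9 such fits the value ran from -2.18 to -1.32 and the adjusted p from 0.0259 to 0.183. With the replicate block it was -1.75 (edgeR adjusted p = 5.65e-05), and in that fit IL11 stayed called in 9 of 9 fits that left out 1 library each, at an adjusted p of at most 0.000737. Without replicate 1 of 0 h and 8 h it was -1.30 (edgeR adjusted p = 0.0348), and without replicate 1 of every group -1.66 (0.00363). The call against 8 h was lost without 8 h replicate 1 (edgeR adjusted p = 0.179), 8 h replicate 3 (0.0841), 24 h replicate 2 (0.160) or 24 h replicate 3 (0.199).

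LIF (ENSG00000128342, chr22:30240447-30246851, minus strand) encodes leukemia inhibitory factor, a gp130 cytokine that supports stem cell self-renewal. It stood at 252, 243 and 335 CPM at 0 h, 279, 262 and 332 CPM at 8 h and 214, 163 and 169 CPM at 24 h. All 24 h libraries were again below all others, but replicate 1 moved less than the other two. The means were 277 ± 50.9, 291 ± 36.5 and 182 ± 27.8 CPM (SD, n = 3). At 24 h against 0 h the log2 fold change was -0.60, with an SE of 0.16 and a 95% interval of -0.94 to -0.26, which missed the threshold (edgeR adjusted p = 0.0525). With the replicate block it passed, at -0.59 (edgeR adjusted p = 0.00583), and it stayed called in 9 of 9 block fits without 1 library each, at an adjusted p of at most 0.0381. The same-numbered log2 ratios were -0.24, -0.57 and -0.99. Without the block, it was called in 1 of 9 fits that left out 1 library, the one without 24 h replicate 1 (edgeR adjusted p = 0.0335). In the other 8 the adjusted p was 0.0504 to 0.213 and the value went down to -0.44, without untreated replicate 3. It missed the threshold with DESeq2's size factors in edgeR (0.0522) and with only the 2 groups (0.0872), and passed with DESeq2's own test (adjusted p = 0.00694), with no filter on low counts (edgeR adjusted p = 0.0397), without replicate 1 of 0 h and 8 h (-0.67, 0.0357) and without replicate 1 of every group (-0.80, 0.00534).

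Against 8 h, LIF fell by 0.68 on the log2 scale, with a 95% interval of -1.02 to -0.33 (edgeR adjusted p = 0.0371). That call was lost without 8 h replicate 1 (edgeR adjusted p = 0.133), replicate 2 (0.0540) or replicate 3 (0.105), and without 24 h replicate 2 (0.160) or replicate 3 (0.186). Exons on the opposite strand overlap 6.73% of the exon length of LIF. The genes that overlap LIF are the antisense gene LIF-AS1 and AC004264.1. The library kit marks strand, but the strand setting of the counting is not given in the sources used here.

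IL6 (ENSG00000136244, chr7:22725884-22732002, plus strand) encodes the cytokine that gave the family its name. It had 6, 6 and 5 reads at 0 h, 15, 4 and 15 at 8 h and 4, 3 and 4 at 24 h. The filter on low counts removed it, and 20.7% of its exon length overlaps genes on the opposite strand. So few reads give no ground for a fold change, and it is left as values.

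CXCL8 (ENSG00000169429, chr4:73740506-73743716, plus strand) encodes interleukin-8. Its level was 15.8, 4.69 and 9.20 CPM at 0 h, 16.2, 5.59 and 10.4 CPM at 8 h and 6.25, 4.10 and 5.14 CPM at 24 h. The libraries of 0 h and 24 h overlapped, because untreated replicate 2 was about as low as the 24 h libraries. The means were 9.89 ± 5.58, 10.7 ± 5.28 and 5.16 ± 1.08 CPM (SD, n = 3). The log2 fold change at 24 h against 0 h was -0.93, with a 95% interval of -1.87 to 0.01 (edgeR adjusted p = 0.194). With the replicate block it was called lower, at -0.83 (edgeR adjusted p = 0.00835), and stayed so in 9 of 9 block fits without 1 library each, at an adjusted p of at most 0.0493. The same-numbered log2 ratios were -1.34, -0.20 and -0.84. Without replicate 1 of 0 h and 8 h the unblocked value was -0.42 (edgeR adjusted p = 0.496).

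CXCL1 (ENSG00000163739, chr4:73869393-73871242, plus strand) encodes a neutrophil attractant that shares its receptor with CXCL8. It had 18.1, 9.46 and 12.4 CPM at 0 h, 16.3, 9.83 and 14.6 CPM at 8 h and 9.38, 7.59 and 11.4 CPM at 24 h. The groups overlapped. The means were 13.3 ± 4.41, 13.6 ± 3.37 and 9.44 ± 1.88 CPM (SD, n = 3), and the log2 fold change at 24 h against 0 h was -0.49, with a 95% interval of -1.05 to 0.06 (edgeR adjusted p = 0.235). With the replicate block it was called lower, at -0.47 (edgeR adjusted p = 0.0382). That call held in 2 of 9 block fits: it was lost without untreated replicate 1 (0.100) or 2 (0.0761), without 8 h replicate 1 (0.0535), 2 (0.0553) or 3 (0.0632) and without 24 h replicate 1 (0.185) or 2 (0.0612). Without replicate 1 of 0 h and 8 h the unblocked value was -0.21 (edgeR adjusted p = 0.629).

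CXCL2 (ENSG00000081041, chr4:74097035-74099293, minus strand), a close paralog of CXCL1, had 0 reads in all 9 libraries. A count of 0 allows up to 3 reads, which is 0.141 CPM in the library where a read weighs most, for counting error only. Its transcripts share 3.88% of their 50-base windows with CXCL1 and 8.99% with CXCL3, so reads of those windows cannot be placed uniquely, but most of its windows are shared with neither. The conditions therefore could not be compared for CXCL2.

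CCL2 (ENSG00000108691, chr17:34255218-34257203, plus strand) encodes the monocyte attractant MCP-1. It had 30.6, 28.6 and 35.1 CPM at 0 h, 25.9, 28.97 and 37.5 CPM at 8 h and 39.1, 29.4 and 28.4 CPM at 24 h. The 3 groups overlapped, with means of 31.4 ± 3.30, 30.8 ± 6.01 and 32.3 ± 5.91 CPM (SD, n = 3). The log2 fold change at 24 h against 0 h was 0.04, with a 95% interval of -0.32 to 0.39 (edgeR adjusted p = 0.895), and the same-numbered pairs went both ways, at 0.35, 0.04 and -0.31. Its sign turned when some libraries were left out.

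IL1A (ENSG00000115008, chr2:112773915-112784590, minus strand) encodes interleukin-1 alpha, an alarm cytokine released from damaged cells. It had 13, 10 and 10 reads at 0 h, 7, 10 and 11 at 8 h and 29, 11 and 42 at 24 h, which is 0.612, 0.385 and 0.442, then 0.318, 0.437 and 0.468, then 1.23, 0.474 and 1.74 CPM. At 24 h replicates 1 and 3 were above all other libraries, while replicate 2 lay within the untreated range. The log2 fold change against 0 h was 1.27, with a 95% interval of 0.31 to 2.22 (edgeR adjusted p = 0.108). With the block it was called higher, at 1.21 (edgeR adjusted p = 0.0334), but in only 4 of 9 block fits without 1 library each. The call was lost without untreated replicate 2 (0.0585) or 3 (0.161), 8 h replicate 3 (0.0563) and 24 h replicate 1 (0.108) or 3 (0.196).

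IL1B (ENSG00000125538, chr2:112829751-112836903, minus strand) encodes interleukin-1 beta, which caspase-1 cuts into its active form. It had 5, 4 and 11 reads at 0 h, 2, 4 and 11 at 8 h and 9, 6 and 15 at 24 h. Its mean of 10.0 reads at 24 h lay at the limit under which a member was called too low to judge. The groups overlapped, and the log2 fold change at 24 h against 0 h was 0.54 (edgeR adjusted p = 0.564). At this depth its 95% interval of -0.73 to 1.81 takes in both a sizeable decrease and a larger increase.

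CSF1 (ENSG00000184371, chr1:109910242-109930992, plus strand) encodes macrophage colony-stimulating factor. It had 16.4, 23.1 and 22.6 CPM at 0 h, 19.2, 24.2 and 21.2 CPM at 8 h and 27.2, 29.1 and 28.4 CPM at 24 h. All 3 libraries of 24 h were above all others, and they lay close together. The means were 20.7 ± 3.76, 21.5 ± 2.48 and 28.2 ± 0.976 CPM (SD, n = 3). Against 0 h the 24 h log2 fold change was 0.45, with a 95% interval of 0.14 to 0.75, and missed the threshold (edgeR adjusted p = 0.0851). With the replicate block it was called higher, at 0.46 (edgeR adjusted p = 0.00838), and stayed so in 9 of 9 block fits without 1 library each, at an adjusted p of at most 0.0417. The same-numbered log2 ratios were 0.73, 0.33 and 0.33, and without replicate 1 of 0 h and 8 h the unblocked value was 0.31 (edgeR adjusted p = 0.0908).

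**Figure D3:**
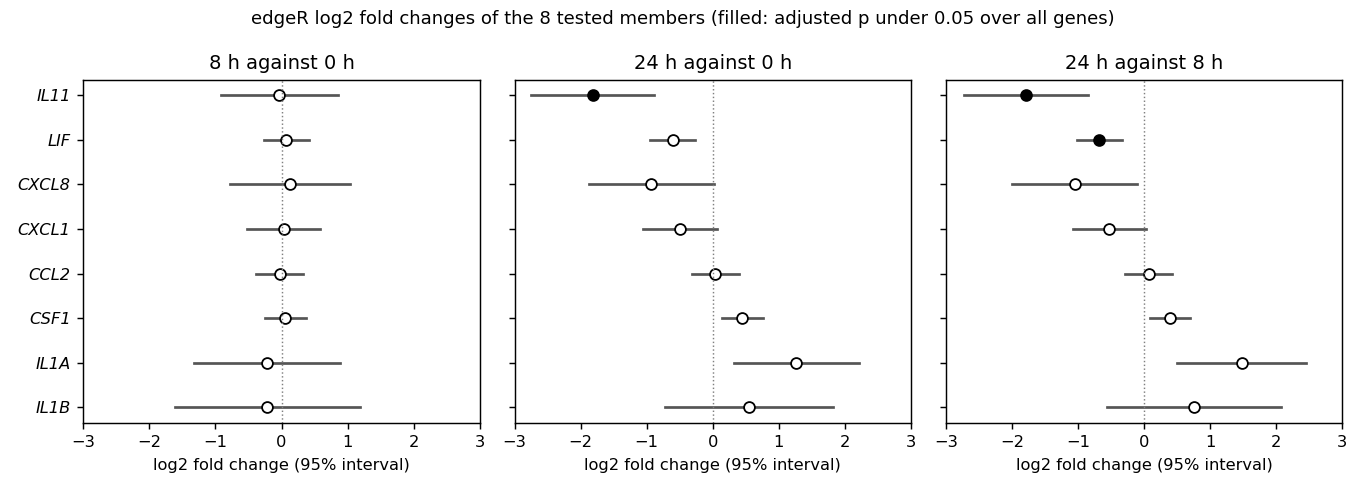
Log2 fold changes of the 8 tested members in the 3 comparisons, from edgeR without the replicate block, with 95% intervals. Filled points passed an adjusted p of 0.05 over all tested genes: IL11 at 24 h against 0 h, and IL11 and LIF at 24 h against 8 h.

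The replicates differed from each other in the same members at each time. Replicate 1 had the highest IL11 and CXCL8 in 3 of 3 groups: IL11 in replicate 1 was 2.30, 1.88 and 1.85 times the mean of replicates 2 and 3 at 0 h, 8 h and 24 h, and CXCL8 was 2.27, 2.02 and 1.36 times. CSF1 was lowest in replicate 1 in 3 of 3 groups, at 0.716, 0.848 and 0.945 times the mean of the other two. Without replicate 1 of every group, the log2 fold change at 24 h against 0 h was 0.33 for CSF1, which then passed the test (edgeR adjusted p = 0.0345). For CXCL8 it was -0.57 (0.285), for CXCL1 -0.20 (0.601) and for IL1A 1.43 (0.111). Across the 9 libraries, which share 3 times and 3 replicate numbers, log2 CPM of IL11 correlated with that of CXCL8 (Pearson r = 0.92), CXCL1 (0.86) and LIF (0.82), and inversely with that of CSF1 (-0.95). CXCL8 and CXCL1 had an r of 0.95. CCL2 had an r between -0.04 and 0.32 with those 4 genes and of 0.10 with CSF1. These are descriptions over n = 9 libraries.

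Over the same 9 libraries the genes most like IL11 were MLPH (r = 0.993), PLAT, the tissue plasminogen activator (0.992), and CLCF1, another gp130 cytokine (0.990). For LIF they were CHPF2 (0.956), FOXC1 (0.954) and the semaphorin and VEGF co-receptor NRP1 (0.947). CXCL8 was closest to MED15 (0.992), MIER2 (0.981) and RGS4 (0.981), and CXCL1 to BMP1 (0.980), INPP5E (0.968) and MAGEA10 (0.962). CSF1 was closest to SSH1 (0.996), MAML3 (0.994) and MGAT5 (0.992). CCL2 had no near match, its highest being AP5Z1 (0.857), THUMPD3 (0.853) and LARP7 (0.832). IL1A was nearest to PNKD (0.939), MLLT1 (0.934) and MARVELD1 (0.928), and IL1B to MHENCR (0.947), COLEC12 (0.944) and B9D1 (0.935). Each set is the highest 3 of the genes with a symbol and a mean of at least 5 CPM, so high values arise from the choice.

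Of 13 receptor genes, 10 had a row and 8 were tested. None passed edgeR's test at 24 h against 0 h, where 4.25% of all tested genes did. An unadjusted p under 0.05 was found for 3 of the 8, and for 4027 of all 15273 tested genes. With the replicate block 4 were higher and 0 lower, beside 12.6% and 11.6% of all tested genes. The median log2 fold change of the 8 receptor genes was 0.36, beside 0.01 for all tested genes. Untreated replicate 1 was the lowest of the 9 libraries for IL6ST, LIFR, OSMR, IL1R1 and IL1RAP. Without replicate 1 of 0 h and 8 h the log2 fold changes of these 5 were 0.15, 0.07, 0.20, 0.18 and 0.57, each nearer to 0, and IL1RAP then passed the test (edgeR adjusted p = 0.0203). CXCR1, CXCR2 and CCR2, the receptors of CXCL8 and CCL2, were not analysed here.

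The gp130 chain IL6ST, shared by the IL-6 family, was the most abundant receptor gene per length, at 18.5 CPM per kb of exon at 0 h. Its level was 105, 211 and 199 CPM at 0 h, 183, 200 and 181 at 8 h and 216, 243 and 222 CPM at 24 h, with a log2 fold change of 0.40 at 24 h against 0 h (edgeR adjusted p = 0.231, and 0.0640 with the block). OSMR, which pairs with gp130 for oncostatin M, had 16.0 CPM per kb at 0 h and a log2 fold change of 0.31 (edgeR adjusted p = 0.120). It was called with the block (0.0439), but in 1 of 9 block fits without 1 library each, the one without untreated replicate 3; in the others the adjusted p was 0.0585 to 0.170. LIFR, the LIF receptor, had 3.92 CPM per kb and 0.35 (edgeR adjusted p = 0.353). The binding chains IL6R and IL11RA were lower in level, at 2.77 and 0.738 CPM per kb, with log2 fold changes of -0.17 (edgeR adjusted p = 0.313) and 0.34 (0.480).

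IL1RAP, the accessory chain of the interleukin-1 receptor, had the largest fold change of the receptors. It stood at 31.0, 58.8 and 54.4 CPM at 0 h, 44.1, 64.8 and 57.1 at 8 h and 93.5, 86.8 and 71.7 CPM at 24 h. All 24 h libraries were above all others. The log2 fold change was 0.80 at 24 h against 0 h (edgeR adjusted p = 0.0589), and 0.85 with the block (0.00652), where it was called in 9 of 9 fits without 1 library each. IL1R1, the signalling receptor of both interleukin-1 cytokines, had 14.5, 23.7 and 25.1 CPM at 0 h and 24.3, 28.3 and 30.1 CPM at 24 h. Its value was 0.38 (edgeR adjusted p = 0.224, and 0.0186 with the block), and that call was lost without 24 h replicate 1 (0.0847). ACKR1, a chemokine-binding receptor that does not signal through G proteins, had 4.19, 7.08 and 6.32 CPM at 0 h and 7.99, 9.74 and 9.65 CPM at 24 h, a log2 fold change of 0.63 (edgeR adjusted p = 0.157, and 0.0120 with the block, lost without 24 h replicate 1 at 0.0503). The decoy receptor IL1R2 and the CSF1 receptor CSF1R were removed by the filter, at 0.0902 and 0.0204 CPM per kb at 0 h.

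Of 32 other cytokine, chemokine and growth factor ligands, 23 had a row and 10 were tested. At 24 h against 0 h, 1 fell and 0 rose, where 4.25% of all tested genes were called and 1.77% as lower. With the block 2 were lower and 1 higher, beside 11.6% and 12.6% of all tested genes. The median log2 fold change of the 10 ligands was -0.15. The one that fell was CLCF1, cardiotrophin-like cytokine factor 1, which signals through gp130 and LIFR. It had 39.5, 17.2 and 21.4 CPM at 0 h, 35.8, 18.3 and 22.3 at 8 h and 12.5, 7.46 and 7.37 CPM at 24 h. Like IL11 it was highest in replicate 1 at every time, and its 24 h libraries were below all others. Its log2 fold change was -1.51 (edgeR adjusted p = 0.0352), and the call was lost without untreated replicate 1 (-1.10, 0.0675), 8 h replicate 3 (0.0519), 24 h replicate 2 (0.152) or 24 h replicate 3 (0.173). With the block it was called in 9 of 9 such fits. TNFSF10, the death ligand TRAIL, had 0.188 to 0.486 CPM at 0 h and 0.761 to 1.08 CPM at 24 h (log2 fold change 1.24, edgeR adjusted p = 0.0612, and 0.0161 with the block, lost without untreated replicate 1 or any 24 h library, at up to 0.0630). VEGFA, the vascular growth factor, had a log2 fold change of -0.41 (edgeR adjusted p = 0.127, and 0.0348 with the block, lost without untreated replicate 3, 8 h replicate 3 or 24 h replicate 1 or 3, at up to 0.164).

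Of 15 JAK-STAT3 pathway genes, 13 were tested and 0 passed edgeR's test at 24 h against 0 h, where 4.25% of all tested genes did. An unadjusted p under 0.05 was found for 2 of the 13, and for 4027 of all 15273 tested genes. The median log2 fold change of the 13 was 0.09. JUNB, an AP-1 subunit and immediate-early gene, came closest, at 0.44 (edgeR adjusted p = 0.0508). With the block it was the 1 gene called (0.00869), where 24.1% of all tested genes were called. That call was lost without 24 h replicate 3 (0.0513), and 14.2% of the exon length of JUNB overlaps HOOK2 on the opposite strand. STAT5A, with 0.46 (edgeR adjusted p = 0.163), and STAT5B, with 0.18 (0.211), came next. Against 8 h, JUNB rose by 0.54 on the log2 scale (edgeR adjusted p = 0.0288), a call lost without 8 h replicate 1 (0.160), 2 (0.0582) or 3 (0.0751) and without 24 h replicate 2 (0.112) or 3 (0.168).

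All 20 genes of the interleukin-1 and NF-kB list were tested. At 24 h against 0 h, 1 rose and 1 fell, where 4.25% of all tested genes were called. With the block 1 rose and 3 fell, beside 12.6% and 11.6% of all tested genes. The median log2 fold change of the 20 was -0.01. ICAM1, a leukocyte adhesion molecule, rose from 18.7, 20.9 and 19.5 CPM to 29.5, 27.9 and 35.3 CPM, by 0.65 on the log2 scale (edgeR adjusted p = 0.0199). BIRC3, an inhibitor of apoptosis that also ubiquitinates NF-kB pathway proteins, fell from 3.67, 3.19 and 2.96 CPM to 1.61, 1.60 and 1.70 CPM, by 1.001 on the log2 scale (edgeR adjusted p = 0.0393). These 2 went opposite ways, and the groups did not overlap for either, as for 30.3% of all tested genes. The ICAM1 call was lost without 24 h replicate 2 (0.102) or 24 h replicate 3 (0.112), and 23.6% of its exon length overlaps genes on the opposite strand. The BIRC3 call was lost without untreated replicate 1 (0.0810), 2 (0.0603) or 3 (0.0526), 8 h replicate 3 (0.0580) and 24 h replicate 1 (0.0604), 2 (0.152) or 3 (0.152). With the block both were called in 9 of 9 fits without 1 library each. The kinase IRAK1, which relays interleukin-1 signals, had a log2 fold change of -0.63 (edgeR adjusted p = 0.0929, and 0.000521 with the block), and the inhibitor NFKBIB -0.44 (0.107, and 0.0207 with the block, lost without 24 h replicate 1 at 0.0777 or 2 at 0.0696).

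Of 18 genes for cytokine processing, messenger RNA decay and C/EBP factors, 16 were tested. At 24 h against 0 h 1 fell and 0 rose, where 4.25% of all tested genes were called. With the block 5 were higher and 1 lower, beside 12.6% and 11.6% of all tested genes. The median log2 fold change of the 16 was 0.08. CAPN2, a calpain protease of the kind that trims the interleukin-1 alpha precursor, fell from 783, 620 and 610 CPM to 494, 424 and 354 CPM, by 0.66 on the log2 scale (edgeR adjusted p = 0.0379). That call was lost without untreated replicate 1 (0.0662) or 2 (0.0502), 8 h replicate 2 (0.0595) or 3 (0.0549), and 24 h replicate 2 (0.148) or 3 (0.163), and with the block it held in 9 of 9. ZFP36, which encodes tristetraprolin, a factor that speeds the decay of cytokine messengers, had a value of 0.43 (edgeR adjusted p = 0.0849, and 0.0249 with the block, lost without untreated replicate 2 or 3 or 24 h replicate 2 or 3, at up to 0.104). CEBPB, a C/EBP factor, had 0.49 (edgeR adjusted p = 0.108, and 0.0335 with the block, lost without untreated replicate 2 or 3, 8 h replicate 3 or 24 h replicate 1 or 3, at up to 0.168). With the block CEBPD, ADAM10 and ZFP36L1 were also called higher. The CEBPD call was lost without untreated replicate 2 (0.0861) or 24 h replicate 3 (0.0698), that of ADAM10 without 24 h replicate 1 (0.0660) and that of ZFP36L1 without untreated replicate 2 (0.0802) or 24 h replicate 2 (0.102) or 3 (0.0694).

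**Figure D4:**
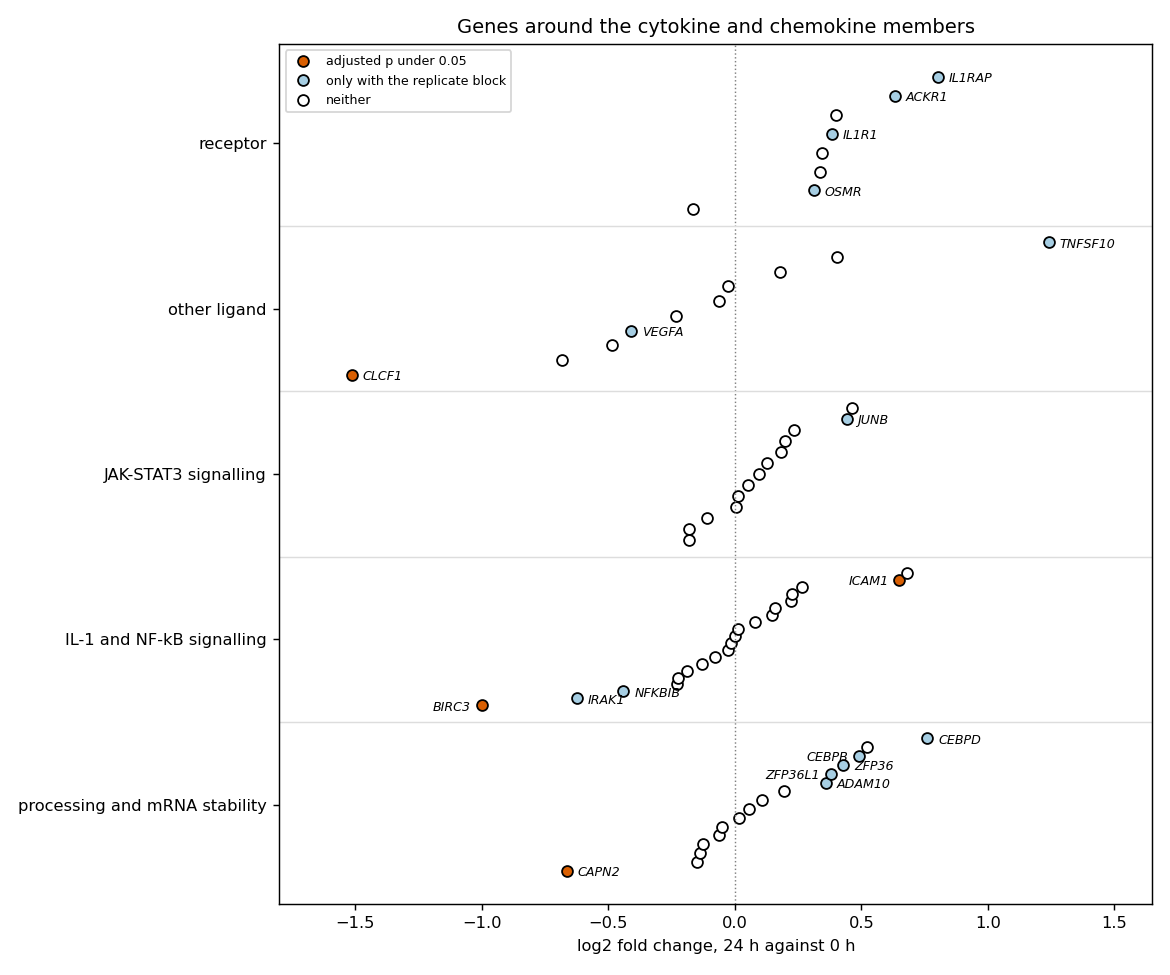
Log2 fold change at 24 h against 0 h of each tested gene of the 5 surrounding lists, 1 point per gene, with genes of a list stacked by value. Filled red points passed an adjusted p of 0.05 without the block (CLCF1 and CAPN2 lower, ICAM1 higher, BIRC3 lower), blue points passed with the replicate block alone, and open points passed in neither fit.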

How the data were processed

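The 9 libraries were stranded mRNA libraries of total RNA, per the labels' protocols. The authors deposited raw read counts per Ensembl gene; per the submitters' processing notes bcl2fastq 2.20.0.422, STAR 2.7.4a and GRCh38 were used, while the counting tool, annotation and strand setting are not given in the sources used here. Symbols, coordinates and exon lengths came from a table of gene names and GENCODE 29 (23252 of 23727 identifiers matched). The members and lists were chosen with earlier results of these data known.

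Counts were tested with edgeR 4.0.16 in R 4.3.3 (TMM, filterByExpr, quasi-likelihood F-test, 1 mean per group, all 9 libraries sharing 1 dispersion), with Benjamini-Hochberg adjustment over 15273 genes and a threshold of 0.05. The biological coefficient of variation was 0.137, and 0.0956 with the replicate number as a block. A member was too low to judge if filtered out or under a mean of 10 counts in every group. All members and receptors were named; of the other lists, the 3 smallest p at 24 h against 0 h and any gene past the threshold.

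The replicate numbers come from the titles. Same-numbered deviations from the group means correlated at 0.367, 0.164 and 0.251 between 24 h and 0 h. Between 8 h and 0 h they correlated at 0.476, 0.432 and 0.414. Both were taken as paired, although 24 h replicate 2 correlated more with untreated replicate 3, at 0.27. Between 24 h and 8 h the same-numbered deviations correlated at 0.423, 0.0367 and 0.404, and 24 h replicate 2 correlated more with 8 h replicate 3, at 0.134. Because of the low value of number 2, these were not taken as paired. The block fit covered all 9 libraries, so its 24 h against 0 h values also assume a replicate effect shared with 8 h. Alternatives were DESeq2 1.42.0, its size factors, no filter, the block, only the 2 groups compared, and leaving out libraries. Reads carry no molecular identifiers, so floors cover counting error only.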

Additional observations from a re-analysis of the deposited data

Results flagged for a closer look

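Of the members, surrounding genes and cell type markers, 10 genes differed between 24 h and 8 h with formate in edgeR's quasi-likelihood test (24 h against 8 h, adjusted over all genes). In this comparison 4.56% of all tested genes were called. Tested were 8 members, 8 receptor genes, 10 other ligands, 13 JAK-STAT3, 20 interleukin-1 and NF-kB and 16 processing genes. The tested markers were 9 astrocytic and glioma, 1 myeloid and 1 endothelial. The log2 fold change was -1.79 for IL11, -0.68 for LIF and -1.48 for CLCF1, which signal through gp130. CNTF, a tested ligand that also does, was not called, at -0.01 (edgeR adjusted p = 0.985). The log2 fold change was 0.60 for ICAM1, -0.95 for BIRC3, 0.54 for JUNB and -0.67 for CAPN2. Among the markers it was 1.34 for FABP7, 1.48 for S100B and 1.49 for VWF. Every one of these calls was lost without 24 h replicate 2, without 24 h replicate 3 and without 8 h replicate 1; in these 3 fits edgeR called 0 genes, with 2445, 2177 and 2078 genes at an unadjusted p under 0.05.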

How the results depend on the processing

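The call counts moved with the settings more than the values did. At 24 h against 0 h, 1 member was called by edgeR; 2 were called with no filter on low counts and 2 with DESeq2, 6 with the replicate block, 3 without replicate 1 of every group, 2 without replicate 1 of 0 h and 8 h, 0 with only the 2 groups compared, and 0 to 2 when 1 library was left out. Among all genes the count was 649, against 1606 with DESeq2, 3687 with the block, 2616 without replicate 1 of every group, 124 with only the 2 groups, and 0 to 899 with 1 library left out. The fits that called 0 were those without 24 h replicate 2 and without 24 h replicate 3. At 24 h against 8 h, where the numbers were not taken as paired, 2 members were called, 6 with the replicate block and 0 to 4 with 1 library left out; among all genes 696 were called, against 1458 with DESeq2, 3130 with the block, 3072 without replicate 1 of every group, 1062 without replicate 1 of 0 h and 8 h, 1787 with only the 2 groups and 0 to 2545 with 1 library left out. With 1 library left out, 0 to 4 of the surrounding list genes were called at 24 h against 0 h and 0 to 11 at 24 h against 8 h. At 8 h against 0 h no setting called a member.

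The values whose sign turned were all uncalled. At 8 h against 0 h, IL11 was 0.0082 with the replicate block; without replicate 1 of every group and without replicate 1 of 0 h and 8 h the values were 0.118 and 0.116 for IL11, 0.0645 and 0.0636 for CCL2, 0.134 and 0.134 for IL1A, 0.0562 and 0.0519 for IL1B, and -0.0098 and -0.00977 for CSF1. Leaving out 1 library gave -0.39 to 0.48 for IL11, -0.0225 to 0.25 for LIF, -0.28 to 0.63 for CXCL8, -0.17 to 0.31 for CXCL1, -0.18 to 0.0891 for CCL2, -1.07 to 0.38 for IL1B and -0.0871 to 0.15 for CSF1. At 24 h, CCL2 was -0.14 against 0 h and -0.20 against 8 h without replicate 1 of every group, and -0.0426 against 8 h without replicate 1 of 0 h and 8 h; with 1 library left out it ran from -0.12 to 0.12 and from -0.0943 to 0.23. With the block as well it was -0.0141 without untreated replicate 1 and -0.18 without 24 h replicate 1. IL11RA ran from -0.00509 to 0.58 at 24 h against 0 h with 1 library left out. The causes were not tested. The block fits without 1 library and the fits without replicate 1 of 0 h and 8 h were chosen after seeing the data. IL1B could not be fitted with only the 2 groups, and IL6 has a value only without the filter. Depth limits IL6, CXCL2, IL1A and IL1B.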

Other observations

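REL, which encodes the NF-kB subunit c-Rel, was singled out after its values were seen. It had 1.08 CPM in untreated replicate 1 and between 6.29 and 11.9 CPM in the other 8 libraries, so that the next lowest library was 5.81-fold higher. Exons of other genes on the same strand overlap 43.3% of the exon length of REL, and the part of this overlap was not tested.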
